A study of Mus musculus with 12 samples.

Results

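The genes described here are 10 mouse genes grouped by name as immediate early AP-1 and EGR genes. The FOS family members are Fos (ENSMUSG00000021250), Fosb (ENSMUSG00000003545), Fosl1 (ENSMUSG00000024912) and Fosl2 (ENSMUSG00000029135). The JUN family members are Jun (ENSMUSG00000052684) and Junb (ENSMUSG00000052837). The others are Egr1 (ENSMUSG00000038418), Atf3 (ENSMUSG00000026628), Ier2 (ENSMUSG00000053560) and Dusp1 (ENSMUSG00000024190). The 10 genes were chosen by name as AP-1 subunits, EGR1 and genes induced with them, with earlier results of these data known. Their counts of calls and median changes beside those of all genes are therefore a description and not a test of the set. They are 10 of the 56748 gene IDs in the deposited table. All 10 were among the 14338 genes that passed the filter on low counts. RNA was sequenced from mesenchymal stem cells of mouse adipose tissue, a stromal cell type that can form fat, bone and cartilage. The 4 groups were 3D spheroids at 24 h, attached 2D cells at 24 h, 3D spheroids at 0 h and attached 2D cells at 0 h, with 3 libraries each. The medium given for these cells was DMEM with 10% fetal bovine serum and 1% antibiotics, in 5% CO2 at 37 °C, and the labels record no other agent and no genetic change. They do not say how long spheroids had been forming at 0 h, nor the age or strain of the animals, nor whether the libraries of a group came from separate cultures. The p-values therefore reflect only how far sequenced libraries differed within groups, and that spread may be technical. The fit pooled this spread over the 4 groups and drew on all tested genes, so it was not that of the compared groups alone. The labelled cell type was not checked against markers, because no table used here pairs the gene IDs with symbols, and the symbols of the 10 genes come from the rule that chose them.

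Immediate early genes are transcribed within minutes of a stimulus such as serum, adhesion or stress, without new protein synthesis, and their RNAs are mostly short-lived. FOS proteins pair with JUN proteins to form AP-1, a leucine zipper transcription factor that binds AP-1 and related sites in DNA. EGR1 is a zinc finger transcription factor induced by many of the same MAP kinase signals, and DUSP1 is a phosphatase that switches MAP kinases off.

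Promoter sequences were available from RefSeq (GRCm38.p6) for 7 of the 10 genes, all but Fosl1, Egr1 and Ier2. They show which of these genes carry the core of a cyclic AMP response element, TGACG, close to the start. The 250 bases before the start were searched on both strands for TGACG, for the full element TGACGTCA, which contains TGACG on each strand, for the AP-1 site TGANTCA and for the CArG box of the serum response element. TGACG was found in 5 of the 7 windows and in 17.8% of the 32851 windows of the same length in the table. The 5 windows are printed 5′ to 3′ on the gene's strand, with TGACG, or CGTCA where it lies on the other strand, in capitals. They are chr12:85473640-85473889 (plus strand) for Fos, chr7:19310046-19310295 (minus strand) for Fosb, chr8:84978749-84978998 (minus strand) for Junb, chr1:191183334-191183583 (minus strand) for Atf3 and chr17:26508473-26508722 (minus strand) for Dusp1.
Fos: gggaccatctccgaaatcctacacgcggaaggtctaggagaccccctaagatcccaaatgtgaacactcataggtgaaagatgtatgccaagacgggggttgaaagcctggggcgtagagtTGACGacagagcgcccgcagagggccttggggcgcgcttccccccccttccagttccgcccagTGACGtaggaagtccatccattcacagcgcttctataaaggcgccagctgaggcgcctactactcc
Fosb: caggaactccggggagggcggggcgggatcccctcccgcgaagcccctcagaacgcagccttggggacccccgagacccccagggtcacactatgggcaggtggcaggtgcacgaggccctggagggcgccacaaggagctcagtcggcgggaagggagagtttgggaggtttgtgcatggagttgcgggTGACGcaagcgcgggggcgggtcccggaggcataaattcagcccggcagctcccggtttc
Junb: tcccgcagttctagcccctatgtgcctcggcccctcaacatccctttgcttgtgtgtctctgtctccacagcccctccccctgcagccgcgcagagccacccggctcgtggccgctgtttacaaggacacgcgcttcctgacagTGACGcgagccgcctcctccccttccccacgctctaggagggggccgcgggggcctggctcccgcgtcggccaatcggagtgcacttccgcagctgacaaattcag
Atf3: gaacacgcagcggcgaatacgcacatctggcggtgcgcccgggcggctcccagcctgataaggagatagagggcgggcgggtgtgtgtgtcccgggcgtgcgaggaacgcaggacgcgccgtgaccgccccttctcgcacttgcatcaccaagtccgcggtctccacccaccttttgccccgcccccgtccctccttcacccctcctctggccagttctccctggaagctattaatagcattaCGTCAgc
Dusp1: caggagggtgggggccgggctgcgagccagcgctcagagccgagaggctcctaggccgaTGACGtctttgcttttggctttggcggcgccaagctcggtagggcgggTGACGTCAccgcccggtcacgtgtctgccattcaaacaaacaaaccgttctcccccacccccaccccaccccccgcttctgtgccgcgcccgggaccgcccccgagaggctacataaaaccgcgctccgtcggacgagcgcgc
In Fos the matches begin 129 and 66 bases before the start, in Fosb 60 bases before it, in Junb 106 bases before it and in Atf3 7 bases before it. In Dusp1 they begin 191, 143 and 140 bases before it, and the last pair overlap in the full TGACGTCA, which 1.55% of all windows hold. TGACG was not in the windows of Fosl2 and Jun. None of the 7 windows held TGANTCA or a CArG box, which were in 6.75% and 1.47% of all windows. A match describes the letters of this window and is not evidence of binding. The lack of a match holds for these 250 bases only, since sites further from the start were not searched. Nothing can be said of Fosl1, Egr1 and Ier2.

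Library totals lay between 10182600 and 17109600 expected counts, and 17080 to 20053 gene IDs had counts in a library. Across genes, log2 counts scaled to a common library size (CPM) correlated at 0.968 to 0.984 between libraries of a group. Levels are given as TPM, in which read numbers are divided by gene length and scaled to the library, so that genes can be compared with each other, and whether groups overlap is said of TPM unless CPM is named. Fold changes come from edgeR's quasi-likelihood test on the counts, and calls were made at an adjusted p (Benjamini-Hochberg, over all 14338 genes) under 0.05. The effective gene length behind the TPM values, taken relative to the other genes, differed between libraries by 2.22-fold for Atf3, 1.64-fold for Fosb and 1.26-fold for Fos, and by at most 1.12-fold for the other 7 genes. For Atf3, Fosb and Fos, ratios of TPM can therefore differ from the count-based folds. They can differ for the other genes as well, because TPM and the tested counts were scaled to the library in different ways. For 24 h against 0 h in 2D, the median log2 fold change of all genes was 0.17 by limma on TPM and 0.02 by edgeR.

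**Figure D1:**
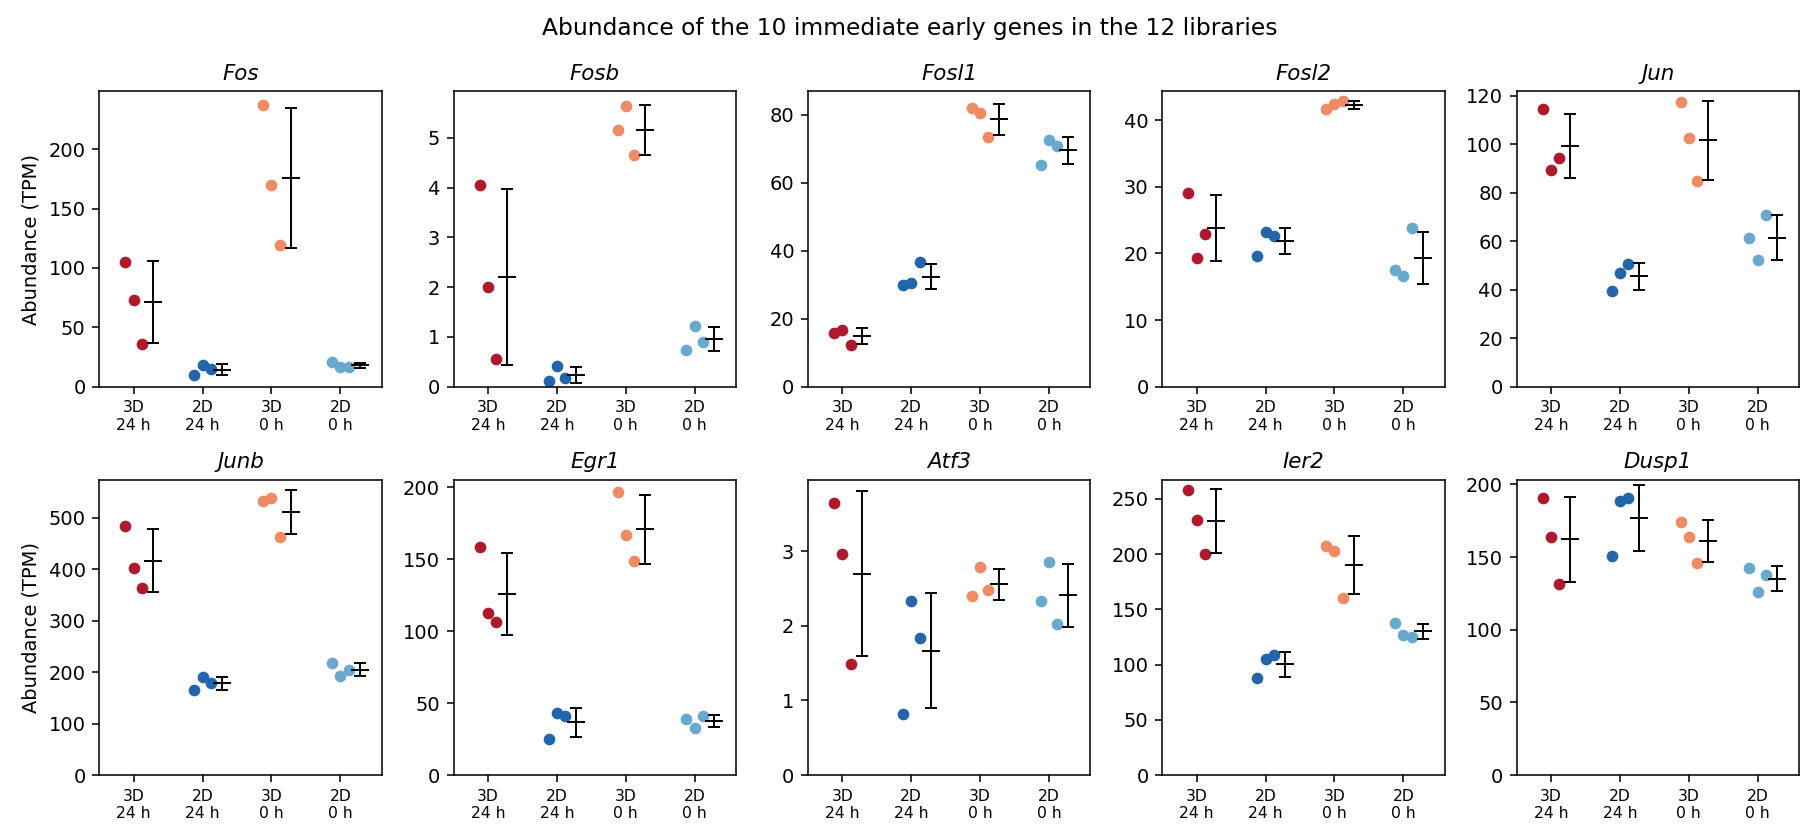
Abundance in TPM (vertical axes, each starting at 0) of the 10 genes in the 4 groups (horizontal axes). Coloured points are single libraries, and the black mark with its bar is the group mean ± SD (n = 3). Fos, Junb and Egr1 were higher in every 3D library than in every 2D library, whereas Fosl1 was lowest in 3D spheroids at 24 h.

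The first comparison was between 3D spheroids and 2D cells at 24 h. Fos, Fosb, Jun, Junb, Egr1 and Ier2 were higher in 3D spheroids, Fosl1 was lower, and Fosl2, Atf3 and Dusp1 did not pass the test. Of the 10 genes, 6 were thus called higher and 1 lower, beside 19.6% of all tested genes called higher and 22.8% called lower. Scaled by library totals instead of TMM, the shares over all genes were 25.4% higher and 18.9% lower, and the same numbers of the 10 genes were called. The median log2 fold change of the 10 genes was 1.14, and that of all tested genes was -0.00. In bulk RNA, a change in the share of cells that express a gene and a change in RNA per cell cannot be told apart.

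Fos had 105, 73.2 and 35.8 TPM in the 3D libraries at 24 h, against 9.49, 18.6 and 14.7 TPM in the 2D libraries at 24 h. Every 3D library was above every 2D library, and the 3D libraries were widely spread. The log2 fold change was 2.22 ± 0.31 (SE), or 4.65-fold (adjusted p = 1.9e-05, edgeR), above that of 97.8% of tested genes. Fosb, a close relative of Fos that also forms AP-1, had 4.06, 2.01 and 0.550 TPM in the 3D libraries at 24 h, against 0.120, 0.410 and 0.170 TPM in the 2D libraries. These low levels rested on 154, 56 and 16 expected counts in 3D and on 3, 9 and 5 in 2D. The groups did not overlap, and the log2 fold change was 3.32 ± 0.58 (SE; adjusted p = 0.00018, edgeR). Its size is uncertain: it was 2.60 without replicate 1 of 3D at 24 h, 3.92 without replicate 2 of 2D at 24 h and 1.23 by limma on log2(TPM + 1), where the pseudocount shrinks changes of low genes, and Fosb was called in each case.

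Fosl1 encodes FRA1, a FOS family protein that lacks the strong activation domain of FOS. It had 15.8, 16.8 and 12.2 TPM in the 3D libraries at 24 h, against 30.0, 30.4 and 36.6 TPM in the 2D libraries. The groups did not overlap in the direction opposite to Fos, and Fosl1 was 2.30-fold lower in 3D spheroids (log2 fold change -1.20 ± 0.13 SE, adjusted p = 1.2e-06, edgeR). The expected counts of Fosl1 were not whole in any of the 12 libraries, so some of its reads were shared with other sequences and its level is less certain. Fosl2, which encodes the related FRA2, averaged 23.8 ± 4.97 TPM in 3D and 21.8 ± 1.98 TPM in 2D (SD, n = 3 each). Its groups overlapped, and the log2 fold change of 0.08 had a 95% confidence interval of -0.18 to 0.34.

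Junb encodes an AP-1 subunit that is a weaker activator than JUN in many settings. It was the most abundant of the 10 genes in 3D at 24 h, with 484, 402 and 364 TPM, against 165, 191 and 178 TPM in the 2D libraries. In 2D at 24 h its mean of 178 TPM was close to the 177 TPM of Dusp1. The 3D and 2D libraries were well apart for Junb, and its log2 fold change was 1.19 ± 0.11 (SE), or 2.29-fold (adjusted p = 9.8e-08, edgeR). Jun, the main partner of FOS, had 114, 89.3 and 94.3 TPM in 3D, against 39.5, 46.7 and 50.4 TPM in 2D. It was 2.16-fold higher without overlap (log2 fold change 1.11 ± 0.13 SE, adjusted p = 2.7e-06, edgeR). In every 2D library and in some 3D libraries the expected counts of Jun were not whole, so the caution given for Fosl1 holds for Jun too. Those of Junb were not whole in replicate 1 of 2D at 0 h.

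Egr1 had 158, 113 and 106 TPM in the 3D libraries at 24 h, against 25.1, 43.3 and 41.3 TPM in the 2D libraries. The lowest 3D library was above the highest 2D library, and the log2 fold change was 1.77 ± 0.16 (SE), or 3.41-fold (adjusted p = 1.0e-07, edgeR). Ier2, an immediate early gene whose product acts in transcription, had 258, 231 and 200.2 TPM in 3D, against 87.5, 105 and 108 TPM in 2D. Its groups did not overlap either, and it was 2.24-fold higher in 3D (log2 fold change 1.16 ± 0.13 SE, adjusted p = 9.1e-07, edgeR).

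Dusp1 was not called at 24 h. Its RNA was at 162 ± 29.5 TPM in 3D and 177 ± 22.5 TPM in 2D (SD, n = 3 each). The groups overlapped, and the log2 fold change of -0.19 had a 95% confidence interval of -0.45 to 0.07. Atf3, a stress-induced leucine zipper factor of the ATF/CREB family, was low, at 2.70 ± 1.10 TPM in 3D and 1.66 ± 0.770 TPM in 2D (SD, n = 3 each). It was not called, and its 95% confidence interval on the log2 scale, -0.52 to 1.28, is wide. Of the 5 genes whose windows hold TGACG, Fos, Fosb and Junb were called at 24 h and Atf3 and Dusp1 were not. Of the genes whose windows lack it, Jun was called and Fosl2 was not. A relation between the matches and the calls was not tested.

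At 0 h, 3D spheroids again had more Fos, Fosb, Jun, Junb, Egr1 and Ier2 RNA than 2D cells, and here Fosl2 was higher too. Fosl1, Atf3 and Dusp1 did not pass the test. The 7 genes called higher and 0 called lower stand beside 23.1% of all tested genes called higher. Over all tested genes, 3309 were called higher and 3255 lower, but this split depended on the scaling, with 4025 and 2610 under upper-quartile scaling and 3918 and 2697 under library totals. Limma on the TPM values gave 3531 and 2212. These settings moved the median of all genes to 0.14, 0.12 and 0.13 on the log2 scale. The median log2 fold change of the 10 genes was 0.79 with TMM, and the same 7 were called under each of these settings.

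Fos had 237, 170.0 and 119 TPM in the 3D libraries at 0 h, against 20.5, 16.7 and 16.8 TPM in the 2D libraries. The lowest 3D library was far above the highest 2D library, and the log2 fold change was 3.22 ± 0.32 (SE), or 9.32-fold (adjusted p = 3.1e-07, edgeR). This was above the value of 98.6% of tested genes. Fosb had 5.16, 5.65 and 4.65 TPM in 3D, against 0.740, 1.21 and 0.900 TPM in 2D. Here the 3D libraries were close together, and the log2 fold change was 2.59 ± 0.47 (SE), or 6.01-fold (adjusted p = 0.00025, edgeR). By limma on log2(TPM + 1) it was 1.66, and Fosb was called there too.

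Egr1 had 196, 167 and 149 TPM in the 3D libraries at 0 h, against 38.9, 33.0 and 41.1 TPM in the 2D libraries. It was 4.12-fold higher without overlap (log2 fold change 2.04 ± 0.16 SE, adjusted p = 2.2e-08, edgeR). Junb had 532, 539.6 and 462 TPM in 3D, against 217, 193 and 204 TPM in 2D. Its log2 fold change of 1.18 ± 0.11 (SE; adjusted p = 1.3e-07, edgeR) was close to that at 24 h.

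Fosl2 had 41.6, 42.5 and 42.8 TPM in the 3D libraries at 0 h, against 17.5, 16.6 and 23.9 TPM in the 2D libraries. The 3D libraries hardly differed from each other, and Fosl2 was 1.99-fold higher in 3D (log2 fold change 0.99 ± 0.12 SE, adjusted p = 4.7e-06, edgeR). Jun had 117, 103 and 84.8 TPM in 3D, against 61.3, 52.2 and 70.7 TPM in 2D. The groups did not overlap, and the log2 fold change was 0.59 ± 0.13 (SE; adjusted p = 0.0013, edgeR). Ier2 had 207, 203 and 160.0 TPM in 3D, against 138, 127 and 125 TPM in 2D. Its change was the smallest among the 7 called genes, at 0.40 ± 0.12 on the log2 scale (SE; adjusted p = 0.014, edgeR), and without replicate 1 of 3D at 0 h it was 0.35 with an adjusted p of 0.056.

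Fosl1 averaged 78.8 ± 4.57 TPM in 3D and 69.5 ± 3.89 TPM in 2D at 0 h (SD, n = 3 each). Dusp1 averaged 161 ± 14.5 TPM in 3D and 135 ± 8.59 TPM in 2D. For both genes the TPM of every 3D library was above that of every 2D library, although the TPM means were close. The edgeR test called neither, with log2 fold changes of 0.07 (95% confidence interval -0.19 to 0.33) and 0.04 (-0.22 to 0.30). Atf3 averaged 2.56 ± 0.206 TPM in 3D and 2.41 ± 0.420 TPM in 2D, with an interval of -0.86 to 0.88 on the log2 scale.

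**Figure D2:**
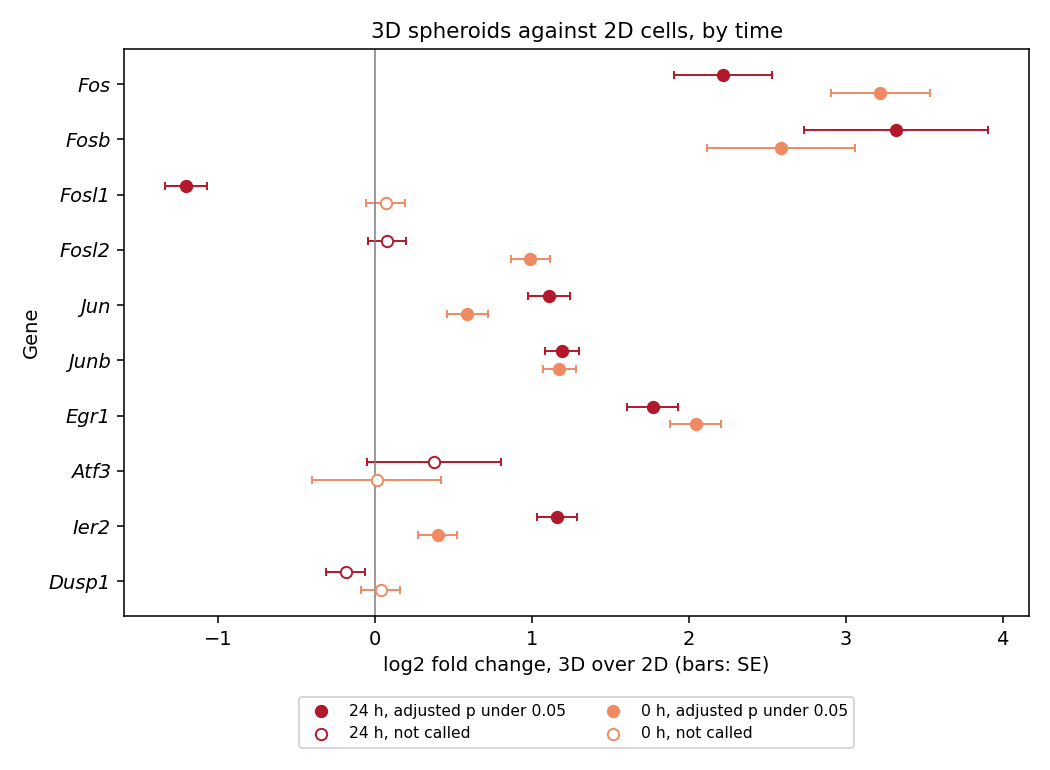
Log2 fold change of 3D over 2D (horizontal axis, bars are the SE of the edgeR fit) for each of the 10 genes (vertical axis) at 24 h and at 0 h. Filled points passed an adjusted p of 0.05 and open points did not. Fos lies at 2.22 at 24 h and 3.22 at 0 h, and Fosl1 lies at -1.20 at 24 h and 0.07 at 0 h.

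Whether the 3D against 2D difference itself changed between the times was tested as an interaction in the same fit. Of the 10 genes, 2 had a difference called higher at 24 h than at 0 h and 2 a difference called lower, beside 18.7% and 20.5% of all tested genes. The difference of the log2 fold changes, 24 h minus 0 h, was -1.27 ± 0.18 for Fosl1 (SE; adjusted p = 2.8e-05, edgeR) and -0.91 ± 0.17 for Fosl2 (SE; adjusted p = 0.00045, edgeR). It was 0.76 ± 0.18 for Ier2 (SE; adjusted p = 0.0023, edgeR) and 0.52 ± 0.18 for Jun (SE; adjusted p = 0.033, edgeR). Fosl1 and Fosl2, which encode the FRA proteins, thus moved towards lower levels in 3D relative to 2D, and Ier2 and Jun towards a wider gap between 3D and 2D. The Jun result was the least secure: its adjusted p was 0.051 without replicate 1 and 0.065 without replicate 3 of 2D at 0 h, 0.053 without replicate 1 and 0.056 without replicate 2 of 2D at 24 h, and 0.098 without replicate 3 of 3D at 0 h.

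For Fos the difference was -1.005 ± 0.43 (SE; adjusted p = 0.071, edgeR), with an interval of -1.90 to -0.11 before adjustment. Its adjusted p was 0.045 without replicate 1 of 2D at 24 h, 0.032 without replicate 3 of 3D at 0 h and 0.022 without replicate 1 of 3D at 24 h. The call of the Fos interaction thus depended on single libraries. Without the expression filter, and with all libraries, its adjusted p was 6.5e-06 (edgeR). The p-values of that fit are not relied on, because they were too small to be credible from 3 libraries per group. Junb had a difference of 0.02 ± 0.15 and Egr1 one of -0.27 ± 0.22 (SE), and neither was called. Fosb, at 0.73 ± 0.78, Atf3, at 0.37 ± 0.59, and Dusp1, at -0.22 ± 0.17 (SE), were not called either.

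The next comparison was between 24 h and 0 h within each culture. In 3D spheroids most of the 10 RNAs were lower at 24 h. Fos, Fosb, Fosl1, Fosl2, Junb and Egr1 fell, and Jun, Atf3, Ier2 and Dusp1 did not pass the test. The 6 genes called lower stand beside 24.7% of all tested genes. The comparisons over time use the same libraries as those between cultures, so they are not independent of them.

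Fosl1 showed the largest of these changes among the 10 genes. It had 15.8, 16.8 and 12.2 TPM at 24 h in 3D, against 82.1, 80.7 and 73.5 TPM at 0 h, and was 5.95-fold lower (log2 fold change -2.57 ± 0.13 SE, adjusted p = 1.3e-10, edgeR). Fos averaged 71.4 ± 34.8 TPM at 24 h and 176 ± 59.2 TPM at 0 h (SD, n = 3 each) and was 2.72-fold lower without overlap (log2 fold change -1.44 ± 0.29 SE, adjusted p = 0.00059, edgeR). Fosl2 fell by 0.95 on the log2 scale to a mean of 23.8 TPM at 24 h, against 42.3 TPM at 0 h (adjusted p = 6.9e-06, edgeR). Junb and Egr1 fell less, and their 24 h and 0 h libraries overlapped in TPM but not in CPM. Junb averaged 417 ± 61.3 TPM at 24 h and 511 ± 42.9 TPM at 0 h (SD, n = 3 each; log2 fold change -0.41 ± 0.11 SE, adjusted p = 0.0042, edgeR). Egr1 averaged 126 ± 28.3 TPM at 24 h and 171 ± 24.0 TPM at 0 h (SD, n = 3 each; log2 fold change -0.55 ± 0.15 SE, adjusted p = 0.0074, edgeR).

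The calls of Egr1 and Fosb in 3D were lost without certain single libraries, and those of Egr1, Fosb and Junb in some limma settings. For Egr1 the adjusted p was 0.065 without replicate 1 of 3D at 0 h and 0.062 without replicate 3 of 3D at 24 h. For Fosb the log2 fold change was -1.30 ± 0.43 (SE; adjusted p = 0.020, edgeR), moving to -0.83 without replicate 3 and to -2.02 without replicate 1 of 3D at 24 h. Its adjusted p was 0.054 without replicate 3 and 0.051 without replicate 2 of 3D at 24 h, and 0.052 and 0.064 without replicates 1 and 2 of 3D at 0 h. By limma on log2(TPM + 1), Egr1 had an adjusted p of 0.087 among genes averaging at least 1 TPM and 0.17 without a filter. With a pseudocount of 0.1 it was 0.092 for Egr1 and 0.052 for Fosb (limma). Without a filter, limma on log2(TPM + 1) gave an adjusted p of 0.0504 for Fosb and 0.072 for Junb. In 3D, Jun, Ier2 and Dusp1 kept means of 99.3, 229.6 and 162 TPM at 24 h, against 102, 190.2 and 161 TPM at 0 h, with overlapping libraries.

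In 2D cells, 5 of the 10 genes were called lower at 24 h, Fosb, Fosl1, Jun, Junb and Ier2, beside 17.0% of all tested genes. Limma on the TPM values called 8.20% of genes lower and 18.5% higher, and 2 of the 10 genes, Fosl1 and Ier2. Fosl1 had 30.0, 30.4 and 36.6 TPM at 24 h in 2D, against 65.2, 72.6 and 70.9 TPM at 0 h, without overlap. It was 2.46-fold lower (log2 fold change -1.30 ± 0.13 SE, adjusted p = 1.4e-06, edgeR). Fosl1 was thus called lower at 24 h in both cultures, and by more in 3D (interaction -1.27 on the log2 scale, as given for the cultures).

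Jun averaged 45.6 ± 5.56 TPM at 24 h and 61.4 ± 9.29 TPM at 0 h in 2D (SD, n = 3 each; log2 fold change -0.65 ± 0.13 SE, adjusted p = 0.0013, edgeR). Ier2 averaged 100.2 ± 11.1 TPM at 24 h and 129.9 ± 7.13 TPM at 0 h (SD, n = 3 each; log2 fold change -0.61 ± 0.13 SE, adjusted p = 0.0015, edgeR). Neither overlapped between the times. Junb fell by 0.43 on the log2 scale (adjusted p = 0.0057, edgeR). Fosb fell by 2.03 (adjusted p = 0.018, edgeR), with adjusted p-values of 0.057 without replicate 1 and 0.079 without replicate 3 of 2D at 24 h. Fos had 9.49, 18.6 and 14.7 TPM at 24 h in 2D, against 20.5, 16.7 and 16.8 TPM at 0 h. These libraries overlapped in TPM but not in CPM, where Fos had 11.98, 20.5 and 17.0 at 24 h, against 23.0, 22.9 and 21.2 at 0 h. Fos was not called in 2D, with a log2 fold change of -0.44 and a 95% confidence interval of -1.10 to 0.23. Without the expression filter it was called, at the same log2 fold change (adjusted p = 0.019, edgeR), but the p-values of that fit are not relied on, as said for the interaction.

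**Figure D3:**
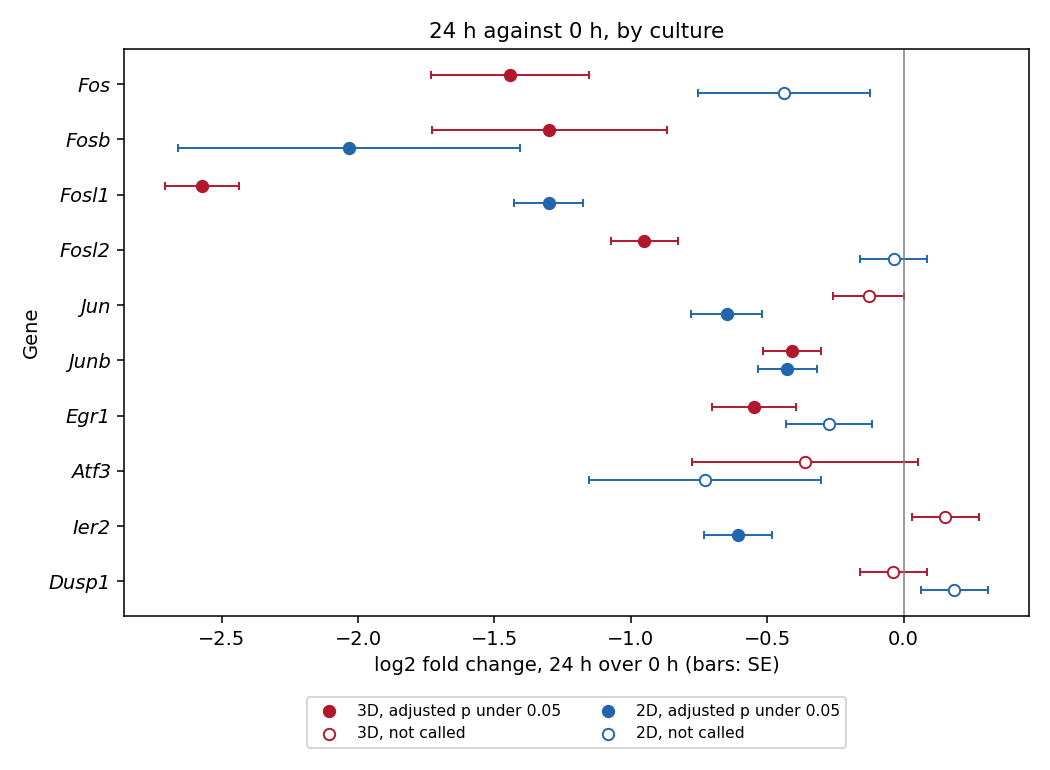
Log2 fold change of 24 h over 0 h (horizontal axis, bars are the SE of the edgeR fit) for each of the 10 genes (vertical axis) in 3D and in 2D. Filled points passed an adjusted p of 0.05 and open points did not. Fosl1 lies at -2.57 in 3D and -1.30 in 2D, and Dusp1 lies near 0 in both.

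In the order of group means, Fos was highest in 3D at 0 h, then 3D at 24 h, 2D at 0 h and 2D at 24 h, and of the neighbours that were compared, 3D at 0 h with 3D at 24 h were called as different and 2D at 0 h with 2D at 24 h were not. Egr1 and Junb had the same order of culture, with both 3D groups above both 2D groups. Jun and Ier2 were highest in the 3D groups, which were not called as different from each other, and lowest in 2D at 24 h. Fosl1 followed time before culture, with the 0 h groups highest and not called as different, then 2D at 24 h and 3D at 24 h. Fosl2 was highest in 3D at 0 h, and no comparison made among the other groups was called for it.

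The makeup of the FOS family RNA is described here without a test. Fos, Fosb, Fosl1 and Fosl2 summed to 112 ± 41.4 TPM in 3D at 24 h and 68.7 ± 8.23 TPM in 2D at 24 h (SD, n = 3 each). At 0 h the sums were 302 ± 62.9 TPM in 3D and 107.8 ± 4.30 TPM in 2D. Fos made up 61.4% ± 9.88 of the sum in 3D and 20.5% ± 4.83 in 2D at 24 h, and 57.1% ± 7.58 in 3D and 16.7% ± 2.63 in 2D at 0 h. Fosl1 made up 14.2% ± 3.54 in 3D and 47.3% ± 4.79 in 2D at 24 h, and 26.7% ± 4.10 in 3D and 64.5% ± 2.84 in 2D at 0 h. In each 3D library Fos exceeded Fosl1, and in each 2D library it was below Fosl1. The ratio of Fos to Fosl1 was 4.65 ± 1.89 in 3D and 0.443 ± 0.153 in 2D at 24 h, and 2.21 ± 0.640 in 3D and 0.260 ± 0.0476 in 2D at 0 h. Within the JUN pair the makeup varied little, with Junb at 80.7% ± 1.21 of Jun plus Junb in 3D and 79.7% ± 1.49 in 2D at 24 h, and 83.5% ± 1.35 in 3D and 77.0% ± 2.39 in 2D at 0 h.

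**Figure D4:**
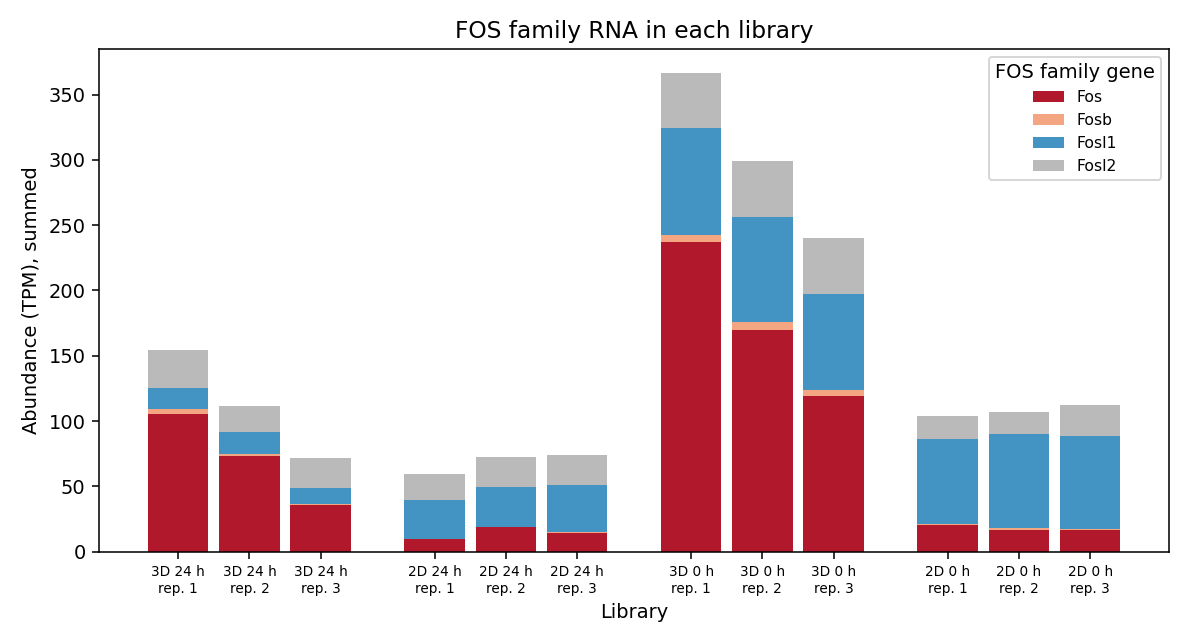
Abundance in TPM (vertical axis) of Fos, Fosb, Fosl1 and Fosl2, stacked in each of the 12 libraries (horizontal axis), by group. Fos is the larger part in 3D libraries, with a mean of 61.4% at 24 h and 57.1% at 0 h, and Fosl1 is the larger part in 2D libraries, with 47.3% at 24 h and 64.5% at 0 h.

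In 3 of the 4 groups, Fos varied more between libraries than most genes did. In 3D at 24 h, the range over its 3 libraries was 1.46 on the log2 CPM scale, wider than that of 99.8% of the 8984 genes averaging 10 CPM or more. In 3D at 0 h the range was 1.04, wider than 99.9% of 9043 genes, and in 2D at 24 h it was 0.77, wider than 96.6% of 9099 genes. In 2D at 0 h it was 0.12, wider than 6.19% of 8827 genes. In CPM, single libraries were high or low for most of the 10 genes at once. In 3D at 24 h, replicate 1, which is also the deepest library, was highest for 8 of the 10 genes. Replicate 3 of 3D at 0 h was lowest for 9 of them, and replicate 1 of 2D at 24 h was lowest for 8. How often these libraries were highest or lowest over all tested genes was not counted. These counts therefore cannot show that the variation is particular to the 10 genes. The part of this shared variation in the differences between groups was not tested. All 7 calls between 3D and 2D at 24 h held when any 1 library was left out. This cannot show how large that part is. Between cultures at 0 h, Ier2 lost its call without replicate 1 of 3D at 0 h. Calls of Egr1 and Fosb over time and of Jun in the interaction were also lost without single libraries, as given above. With any 1 library left out, the 3D against 2D log2 fold change of Fos lay between 1.95 and 2.56 at 24 h. At 0 h it lay between 2.94 and 3.44.

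The gene whose pattern over the 12 libraries was most like that of Fos was ENSMUSG00000023411, with a Pearson correlation of log2 CPM of 0.965. At 24 h it averaged 125 ± 12.3 CPM in spheroids, against 77.5 ± 11.5 CPM in attached cells (SD, n = 3 each). At 0 h it averaged 225 ± 14.6 CPM in spheroids, against 78.9 ± 8.79 CPM in attached cells. For Jun it was ENSMUSG00000030872, with a correlation of 0.970. This gene averaged 174 ± 13.9 CPM in spheroids at 24 h, against 102 ± 1.02 CPM in attached cells (SD, n = 3 each). Its 0 h means were 192 ± 12.8 CPM in spheroids, against 130.0 ± 8.02 CPM in attached cells. Both were picked as the highest among all tested genes, the libraries share 4 groups, and the correlations describe likeness only.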

How the data were processed

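RNA was measured in 12 libraries, 3 in each of 4 groups, which were taken from the sample labels. Per the labels' protocols, a SMART-seq v4 low-input kit and a TruSeq stranded mRNA kit were used. FastQC 0.11.9, STAR, RSEM and the build GRCm39 are named in the submitters' processing notes. For STAR and RSEM the version is not given in the sources used here. Deposited tables hold expected counts per gene ID, which are estimates that share out reads fitting several genes, and log2(TPM + 1) values, also deposited by the authors, which were turned back into TPM here. Column names give day 0 and day 1, read as 0 h and 24 h.

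The rounded expected counts were tested with edgeR 4.0.16 (R 4.3.3): expression filter with a minimum count of 10, TMM scaling, and a quasi-likelihood fit with 1 term per group and 8 residual degrees of freedom. P-values were adjusted by Benjamini-Hochberg over all 14338 tested genes. The SE of a log2 fold change was taken from its size and the F statistic. Steps were tested on simulated counts. Totals of 10182600 to 17109600 expected counts set the counting precision. The alternatives were upper-quartile scaling, scaling by library totals, no expression filter, DESeq2 1.42.0, limma 3.58.1 on log2 TPM with pseudocounts of 1 and 0.1, only the libraries compared, a replicate block, and each library left out in turn.

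The 10 genes and the lists were chosen with earlier results of these data known. All 10 are named in each comparison, and for likeness the gene with the highest correlation is given for Fos and for Jun. The 5 related gene lists and the cell type marker lists need symbols for the other IDs, which no table used here pairs (0 of 49997 RefSeq entries carry an Ensembl ID), so they were not used. Protein sequences were not used here. Promoter coordinates are those of GRCm38.p6 and were not joined to the counts, which use GRCm39.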

Additional observations from a re-analysis of the deposited data

Results flagged for a closer look

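Fosl1, Fosl2, Jun and Ier2 were called in edgeR's test of the interaction, which asks whether the 3D against 2D difference changed between the times. Of the 10 genes, 2 were called higher and 2 lower, beside 18.7% and 20.5% of all tested genes. Such calls were thus about as frequent among the 10 genes as among all tested genes. The log2 fold change of 3D over 2D at 24 h minus that at 0 h was -1.27 for Fosl1 and -0.91 for Fosl2. It was 0.52 for Jun and 0.76 for Ier2. The call of Jun was lost in 9 of 20 alternatives, with an adjusted p of up to 0.30 (limma on log2(TPM + 1) without a filter). No other of the 10 genes passed this test.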

How the results depend on the processing

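The calls of the 10 genes between 3D and 2D numbered 7 at each time under every alternative, except 6 at 0 h without replicate 1 of 3D at 0 h, where Ier2 was lost. Changes over time depended more on the processing. In 2D, limma on log2(TPM + 1) called 2 of the 10 genes with a mean of at least 1 TPM and 1 without a filter, and 3 with a pseudocount of 0.1, against 5 by edgeR. Without a filter it called 3111 genes in all in 2D, against 4930 by edgeR, and 3 of the 10 in 3D, against 6. Over 1040 recomputed log2 fold changes of the 10 genes, 971 kept direction and call, 33 lost the call, 6 gained one and 30 changed sign, all 30 for values that edgeR had not called. For 24 h against 0 h, Fosl2 in 2D was 0.013 with upper-quartile scaling, 0.022 with library totals and 0.18, 0.18 and 0.19 with limma, Dusp1 in 3D was 0.044 with library totals, and Atf3 in 3D was 0.011 with limma at a pseudocount of 1. For the interaction, Junb was -0.037 with upper-quartile scaling and -0.10 with limma, and Fosb was -0.44 with limma at a pseudocount of 1. Leaving out 1 library gave -0.15 to 0.19 for Atf3 and -0.021 to 0.14 for Dusp1 between cultures at 0 h, and -0.11 to 0.67 for Atf3 and -0.018 to 0.17 for Fosl2 at 24 h. It gave -0.12 to 0.11 for Fosl2 over time in 2D, -0.25 to 0.023 for Jun and -0.12 to 0.097 for Dusp1 over time in 3D, and -0.062 to 0.13 for Junb and -0.11 to 0.63 for Atf3 in the interaction. No pairing by replicate number was seen: same-numbered libraries correlated at -0.234 to 0.0518 in their deviations from the group means, and 0 of 12 correlated best with their own number. This cannot exclude that same-numbered libraries shared a culture or day, which the labels do not say. With the replicate number as a block, 5681 genes were called between cultures at 24 h and 6127 at 0 h, and the Fos interaction was called (adjusted p = 0.038, edgeR). Without the expression filter the Fos interaction was called too (adjusted p = 6.5e-06, edgeR), as was Fos over time in 2D (0.019). The p-values of the fit without a filter are not relied on, because they were too small to be credible from 3 libraries per group. The interaction of Jun was lost with upper-quartile scaling (adjusted p = 0.053, edgeR) and with limma. The cause of these shifts was not tested. Depth limits Fosb and Atf3 most, and 3 libraries against 3 allow no exact permutation p below 0.1.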
